A study of Mus musculus with 6 samples.

Results

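The genes described here are 51 genes that copy DNA in S phase or make the nucleotides for it. They were listed by symbol for their known roles, with earlier results of these data in view, and are the rows of those symbols among the 31130 genes of the 6 deposited count tables. The tables came from tumor tissue of 3 LC mice, which carried lung cancer alone, and 3 IP + LC mice, which carried lung cancer in lungs with interstitial pneumonia (IP). All were wild-type female C57BL/6 mice of 6 to 8 weeks, the LC and IP + LC groups alike, and all received LLC (Lewis lung carcinoma) cells, a line from a mouse lung tumor that here carried a green fluorescent protein, by injection into the left lung on day 14. Only the IP + LC mice had been given bleomycin, an antitumor agent used to scar the lung, at 2 mg/kg by the oropharynx on day 0, and tumor tissue of both groups was taken on day 21. RNA was counted at the 3′ end of each transcript with unique molecular identifiers (UMIs), so that each count is a different molecule, and levels are given as counts per 1000000 UMIs (CPM) after TMM scaling. A molecule is counted once at its 3′ end whatever its length, so levels of different genes can be set side by side, except in LC replicate 1, whose levels went with transcript length over all genes. In these bulk samples, more dividing cells and more of these transcripts in each dividing cell cannot be told apart.

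DNA replication starts at origins that are licensed in G1, when the origin recognition complex (ORC), CDC6 and CDT1 load the ring of MCM2 to MCM7 onto DNA. At the start of S phase CDC45 and the GINS complex turn the loaded ring into a working helicase, DNA polymerases alpha, delta and epsilon copy the strands, and the clamp PCNA, its loader RFC, RPA and LIG1 complete the lagging strand. Ribonucleotide reductase, thymidylate synthase, thymidine kinase and dUTPase set the supply of deoxynucleotides, and CAF-1, UHRF1 and DNMT1 restore nucleosomes and DNA methylation behind the fork. Most of these genes are known to be switched on together at the G1/S border by E2F transcription factors, while the genes of mitosis come on later through the DREAM complex and MYB-MuvB, which use the CHR element and the CCAAT box of NF-Y.

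Promoter sequences were read to show what the genes share in their DNA. RefSeq promoter sequences on GRCm38.p6, from 250 bases before to 50 bases after the start, were found for 41 of the 51 genes and gave 50 promoters. The E2F words searched on both strands were TTTCCCGC, TTTCGCGC, TTTGCCGC and TTTGGCGC. At least 1 of them was in 15 of the 50 promoters (30.0%), in 744 of all 32851 promoters (2.26%) and in 1 of 22 promoters of mitosis genes (4.55%). In the promoters of 48 further replication and fork factors the share was 28.9%. Promoters of Mcm5, Mcm7, Rfc3 and Dnmt1 held 2 E2F words each. The Mcm6 and Mcm3 promoters, which hold 3 and 2 such words, are shown whole, with the words in capitals and the last 50 bases after the start. Both genes encode ring subunits of the helicase and both lie on chromosome 1, on the minus strand, at chr1:128359656-128359955 for Mcm6 and at chr1:20820263-20820562 for Mcm3.
Mcm6: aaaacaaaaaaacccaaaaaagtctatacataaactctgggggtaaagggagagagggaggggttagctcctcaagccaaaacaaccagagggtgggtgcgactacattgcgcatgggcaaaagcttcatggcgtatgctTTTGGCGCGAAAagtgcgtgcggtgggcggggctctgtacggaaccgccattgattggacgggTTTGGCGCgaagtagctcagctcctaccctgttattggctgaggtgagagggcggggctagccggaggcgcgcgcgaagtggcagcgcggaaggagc
Mcm3: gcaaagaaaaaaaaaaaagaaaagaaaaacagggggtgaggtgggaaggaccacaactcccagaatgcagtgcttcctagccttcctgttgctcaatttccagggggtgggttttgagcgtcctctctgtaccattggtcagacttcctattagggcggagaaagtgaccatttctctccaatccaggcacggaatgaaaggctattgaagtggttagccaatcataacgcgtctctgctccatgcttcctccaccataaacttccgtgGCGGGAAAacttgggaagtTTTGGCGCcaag

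The words lay on either strand and at different distances from the start. The second words of Mcm7 and Dnmt1, after the start, are not shown. Besides Mcm6, the first word lay before the start in 9 promoters, and these words are shown with their flanks, in the sense of the gene, with E2F words in capitals. In Mcm5 a pair of words overlapped on opposite strands. They came from chr8:75109340-75109379 on the plus strand for Mcm5, chr5:138172025-138172064 on the minus strand for Mcm7, chr11:98907997-98908036 on the plus strand for Cdc6, chr4:108579411-108579450 on the plus strand for Orc1, chr8:95633502-95633541 on the plus strand for Gins3 and chrX:93632270-93632309 on the minus strand for Pola1. The others came from chr5:151651195-151651234 on the minus strand for Rfc3, chr9:20952819-20952858 on the minus strand for Dnmt1 and chr17:56304112-56304151 on the plus strand for Uhrf1.
Mcm5: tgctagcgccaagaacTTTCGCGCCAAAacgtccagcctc
Mcm7: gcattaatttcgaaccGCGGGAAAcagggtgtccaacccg
Cdc6: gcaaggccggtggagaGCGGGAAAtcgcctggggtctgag
Orc1: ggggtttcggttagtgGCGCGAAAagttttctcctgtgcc
Gins3: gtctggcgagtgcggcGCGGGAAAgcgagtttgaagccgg
Pola1: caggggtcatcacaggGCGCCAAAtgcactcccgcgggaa
Rfc3: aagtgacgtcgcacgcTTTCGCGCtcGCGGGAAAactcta
Dnmt1: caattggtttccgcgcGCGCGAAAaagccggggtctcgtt
Uhrf1: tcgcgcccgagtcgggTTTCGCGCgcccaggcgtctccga

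**Figure D1:**
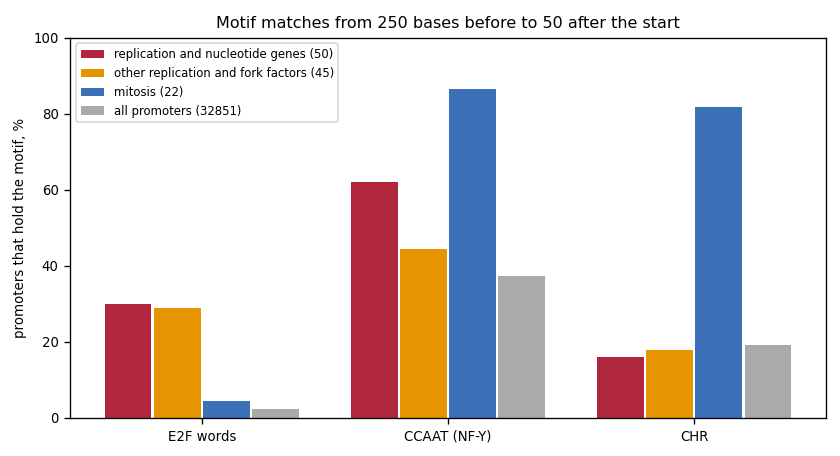
Percent of promoters (y axis) with at least 1 match to the E2F words, CCAAT or the CHR words, for the replication and nucleotide genes, the other replication factors, the mitosis genes and all promoters (bars; number of promoters in brackets). The replication and nucleotide genes stand at 30.0% for E2F words and 16.0% for CHR, and the mitosis genes at 4.55% and 81.8%.

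CCAAT, on either strand, was in 62.0% of the promoters of the 51 genes, in 86.4% of those of mitosis genes and in 37.4% of all promoters. The CHR words TTTGAA and TTCGAA were in 16.0%, 81.8% and 19.2% of the same promoters. The E2F words do not overlap the CHR words, and the plot of motif shares sets these values beside each other. A match of letters is no proof of binding, and the promoters of the 51 genes also had a higher GC content (median 58.0%) than all promoters (median 52.7%). The median was higher still for mitosis genes (61.3%) and for the further replication and fork factors (63.3%). Among tested genes with a promoter, the 13 with an E2F word had a median log2 fold change between the groups of 1.44 and the 24 without had 1.21, with ranges of 0.72 to 2.16 and of -0.30 to 2.55 that overlapped.

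The libraries held 592733 UMIs in LC replicate 1 and 1336919 to 1631066 UMIs in the other 5 tumors, so that 3 UMIs stood for 5.17 CPM in the former and for 1.75 to 2.54 CPM in the latter. LC replicate 1 stood apart from LC replicates 2 and 3 on many of the 51 genes, and its values are given first and the comparison is given with and without it. The biological coefficient of variation over all tested genes was 22.9% with it and 11.9% without it. The labels name lung cancer cells, but the tissue was whole tumor, and markers of airway and type 2 alveolar cells, endothelium, muscle and macrophages were found in all 6 tumors.

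At least 1 gene of each of the 8 roles described below, from origin licensing to repair at the fork, rose in the IP + LC tumors. At least 1 UMI was found for 50 of the 51 genes, and 46 had enough UMIs for the edgeR quasi-likelihood test. Of the 46, 34 rose in IP + LC tumors at an adjusted p below 0.1, against 16.8% of the 11240 genes tested. This count depended on single libraries. Leaving out LC replicate 2 gave 13, LC replicate 3 gave 21, and IP + LC replicate 1 or 2 gave 17, whereas leaving out LC replicate 1 raised the count to 45. Over all genes the count moved too, from 1885 to 1016 without LC replicate 2 and 1290 without LC replicate 3. It was 1088 and 897 without IP + LC replicates 1 and 2, and 3324 without LC replicate 1. After the counts were thinned to the depth of the smallest library, 11 of 39 tested genes rose, against 707 of 8856 over all genes. Of the 34 genes, 13 were called whichever tumor was left out: Mcm2, Mcm3, Mcm10, Pola1, Lig1, Rrm1, Rrm2, Uhrf1, Dnmt1, Brca1, Exo1, Blm and Chek1. Among these, Mcm10, Uhrf1, Brca1, Exo1, Blm and Chek1 had enough UMIs for the test only through the IP + LC group. Of the 34, a further 8 kept their call only when LC replicate 1 was the tumor left out: Mcm4, Mcm7, Gins1, Gins2, Prim1, Rfc3, Tyms and Dut. None fell by edgeR, where 19.6% of all genes fell, and none fell at an unadjusted p under 0.05, by DESeq2 or by limma voom. Their median log2 fold change was 1.35, against 0.02 for all tested genes, and 29 both passed the test and rose at least 2-fold. The genes ran from Rpa3, the smallest subunit of RPA, at -0.30 to Exo1, a nuclease of mismatch repair and end resection, at 3.01. Scaling by library size only moved the median of all genes by 0.16 on the log2 scale. It changed the numbers of all genes that rose and fell from 1885 and 2203 to 2520 and 1800, and it left 35 of the 46 genes called higher.

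The summed level of the 51 genes was 2450, 964 and 877 CPM in LC replicates 1, 2 and 3 and 3111, 3036 and 2825 CPM in IP + LC replicates 1, 2 and 3. The sum in LC replicate 1 thus lay nearer to the IP + LC tumors than to the other LC tumors. LC replicate 1 was the highest LC tumor for 43 of the 46 tested genes and the lowest for 1, Rfc1. Over all 11240 tested genes it was the highest LC tumor for 4685 and the lowest for 4919. All 3 IP + LC tumors lay above all 3 LC tumors for 28 of the 46 genes, against 21.6% of all tested genes. In the other 18, LC replicate 1 reached the lowest IP + LC tumor, whereas LC replicate 2 or 3 did so for 1 gene, Rpa3. Without LC replicate 1, 45 of 47 tested genes rose by edgeR (28.3% of all genes) and their median log2 fold change was 1.78. All 34 genes called with 6 tumors were among the 45, and Gins4 and Rpa3 were the genes not called.

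**Figure D2:**
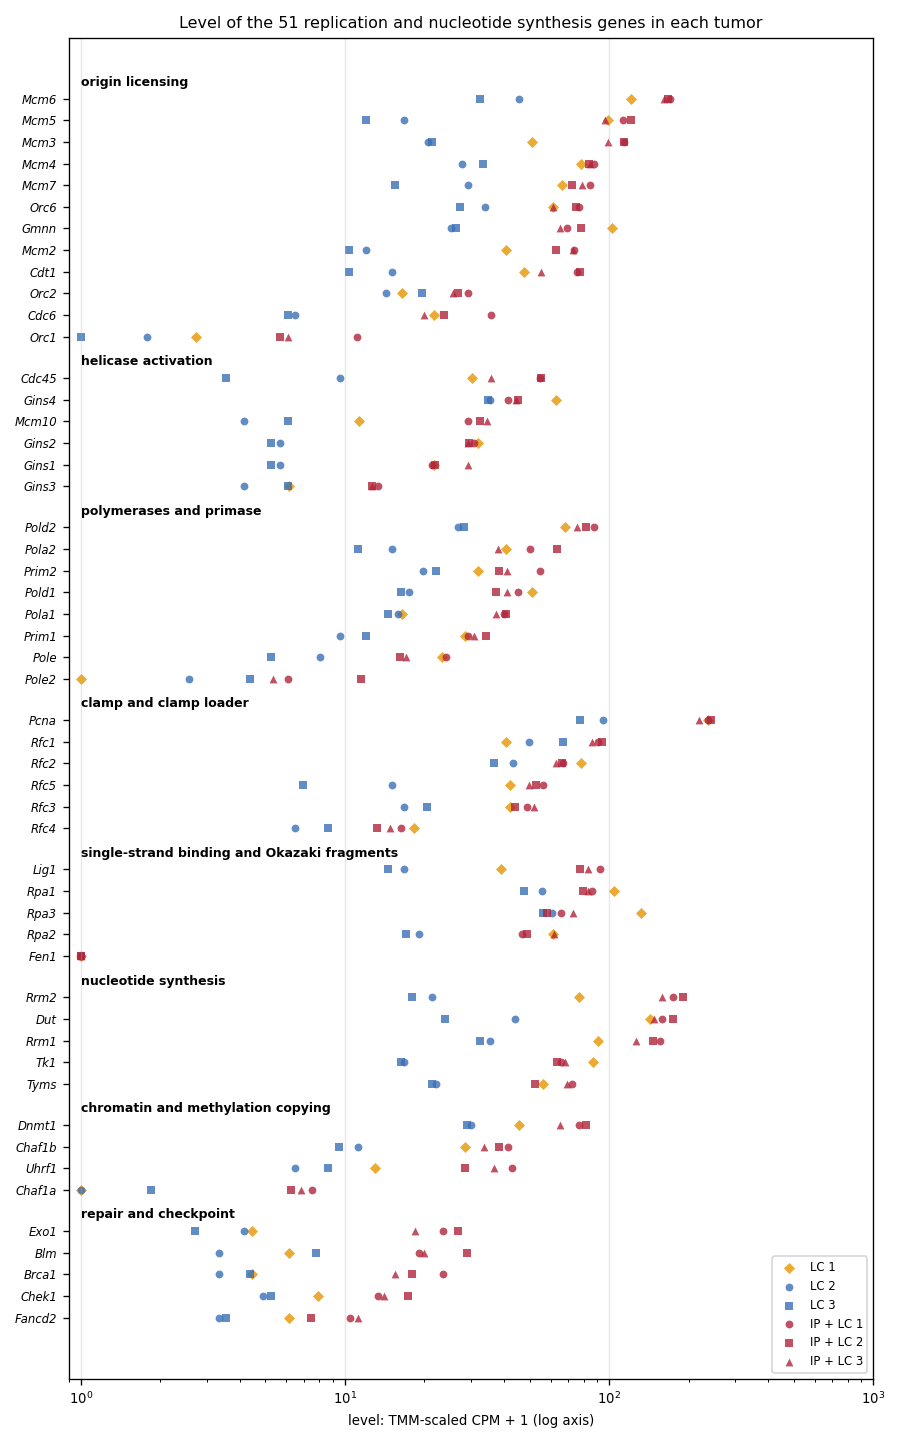
Level of each of the 51 genes in each tumor (x axis, TMM-scaled CPM plus 1, log axis), grouped by role, with 1 point per tumor. The red IP + LC points lie to the right of the blue points of LC replicates 2 and 3 for nearly every gene, and the orange point of LC replicate 1 moves between them from gene to gene.

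The filter on low counts took part in these counts. It asked for about 7.41 CPM in 3 libraries, and 31 of the 46 genes passed it in all 3 LC libraries, of which 21 rose. The other 15 passed it only through the IP + LC group, so that they had to be higher there to be tested at all, and 13 of them rose. With no filter beyond 1 UMI, 45 of 50 genes rose by edgeR, against 7.87% of all genes with a UMI.

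Of the 11 tested origin licensing genes, 9 rose in IP + LC tumors (16.8% of all genes), with a median log2 fold change of 1.41. Mcm2 and Mcm3 were those called whichever tumor was left out. Mcm3 (ENSMUSG00000041859, at chr1:20802968-20820312 on the minus strand of GRCm38) had the smallest p-value of the group. Its level was 49.9, 19.6 and 20.3 CPM in LC replicates 1, 2 and 3 and 112, 113 and 98.0 CPM in IP + LC replicates 1, 2 and 3. The IP + LC tumors were closely grouped and did not overlap the LC tumors, and the log2 fold change was 1.95 ± 0.34 (SE, n = 3 per group, edgeR adjusted p = 0.00424). Mcm2, another subunit of the ring, had the largest change, with 39.6, 11.0 and 9.32 CPM in LC tumors and 72.5, 61.9 and 71.9 CPM in IP + LC tumors. Its log2 fold change was 1.99 ± 0.44 (edgeR adjusted p = 0.0114) and its groups did not overlap either. Mcm6, whose promoter is shown above, was the most abundant ring subunit in IP + LC tumors, at 160 to 169 CPM against 120, 44.7 and 31.4 CPM in LC tumors, and rose by a log2 fold change of 1.41 ± 0.42 (edgeR adjusted p = 0.0366), a call it kept in 3 of the 6 fits that leave out a tumor.

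Mcm5 shows how LC replicate 1 enters the test, and it was chosen after its values were seen. Its level was 98.2 CPM in LC replicate 1, within the IP + LC range of 95.9 to 120 CPM, and 15.7 and 11.0 CPM in LC replicates 2 and 3. The log2 fold change was 1.58 ± 0.65 with all tumors (edgeR adjusted p = 0.103) and 3.03 without LC replicate 1 (edgeR adjusted p = 1.57e-07). Gmnn, which encodes geminin, the inhibitor of CDT1 that blocks a second licensing of the same origin, was highest in LC replicate 1 at 102 CPM. It stood at 24.3 and 25.4 CPM in the other LC tumors and at 63.9 to 77.1 CPM in IP + LC tumors, and did not pass the test (log2 fold change 0.60 ± 0.49, edgeR adjusted p = 0.396). Without LC replicate 1 its log2 fold change was 1.5 (edgeR adjusted p = 2.51e-05), and with no filter on low counts it passed the limit with all tumors (edgeR adjusted p = 0.0821).

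Cdt1, the licensing factor that geminin holds back, rose by a log2 fold change of 1.76 ± 0.47 (edgeR adjusted p = 0.0241), from 46.5, 14.1 and 9.32 CPM in LC tumors to 74.7, 76.5 and 54.5 CPM in IP + LC tumors. It lost its call without LC replicate 2 (edgeR adjusted p = 0.127), without IP + LC replicate 2 (0.102) and with thinned counts (0.161). Orc1, the ORC subunit that comes and goes with the cell cycle, had too few UMIs for the test, with 1, 1 and 0 in LC tumors and 14, 8 and 7 in IP + LC tumors. The ratio of pooled UMIs per pooled library total was 11.2, before TMM scaling, with a 95% interval of 2.83 to 96.8 that covers counting error only. Of the other licensing genes, Cdc6, Mcm4, Mcm7, Orc2 and Orc6 all rose, by log2 fold changes of 0.72 to 1.54, each with a call kept in 1 or 2 of the 6 fits that leave out a tumor. Much of the Mcm7 transcript (81.2%) also matches Ap4m1 or the pseudogene Gm5487, which had 3 to 12 and 0 to 1 UMIs.

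Of the 6 helicase activation genes, 5 rose (16.8% of all genes), with a median log2 fold change of 1.49. Mcm10, which helps the loaded ring to start unwinding, had both the smallest p-value and the largest change. It went from 10.3, 3.13 and 5.08 CPM in LC tumors to 28.3, 31.5 and 33.4 CPM in IP + LC tumors, with no overlap and a log2 fold change of 2.50 ± 0.37 (edgeR adjusted p = 0.00221). Mcm10 passed the filter only through the IP + LC group, so that it had to be higher there to be tested. Cdc45, Gins1, Gins2 and Gins3 rose by log2 fold changes of 1.44 to 2.12. In the 6 fits that leave out a tumor, Mcm10 was always called, Gins3 was called in 5, Cdc45 in 4, and Gins1 and Gins2 in 1, that without LC replicate 1. LC replicate 1 reached the lowest IP + LC tumor for Gins1 and Gins2, at 20.7 and 31.0 CPM. Gins4, the remaining GINS subunit, was named after its values were seen because it stood apart. It was at 62.0, 34.5 and 33.9 CPM in LC tumors and 40.6, 44.4 and 43.6 CPM in IP + LC tumors, with a log2 fold change of 0.04 ± 0.26 (edgeR adjusted p = 0.93). All of the last 1000 bases of Gins2 overlap exons of Gse1 on the opposite strand, which had 1 to 16 UMIs, and whether the counting used strand was not stated.

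Of the polymerase and primase genes, 5 of 7 rose (16.8% of all genes), with a median log2 fold change of 1.1. Pola1, the catalytic subunit of polymerase alpha, had the smallest p-value and was steady within each group. It was at 15.5, 14.9 and 13.6 CPM in LC tumors and at 39.2, 39.7 and 36.3 CPM in IP + LC tumors (log2 fold change 1.40 ± 0.22, edgeR adjusted p = 0.00303). Here LC replicate 1 was level with the other LC tumors. Pola2, the accessory subunit of the same polymerase, had 39.6, 14.1 and 10.2 CPM in LC tumors and 49.3, 62.5 and 37.0 CPM in IP + LC tumors, and its log2 fold change was 1.41 ± 0.43 (edgeR adjusted p = 0.0396). Pola2 lost its call without LC replicate 2 or 3 (edgeR adjusted p = 0.177 and 0.135), without IP + LC replicate 1 or 2 (0.111 and 0.162) and with thinned counts (0.225), where Pola1 was at 0.104. In Pola2, LC replicate 1 reached the lowest IP + LC tumor, which it did not for Pola1. The longest transcripts of Pola1 and Pola2 have 5346 and 2878 bases, and the part of length in this was not tested.

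Prim1, Prim2 and Pold2, which encode the primase subunits and a subunit of polymerase delta, rose by log2 fold changes of 0.94 to 1.13. Their calls were kept in 1, 4 and 2 of the 6 fits that leave out a tumor. The catalytic subunits of delta and epsilon, Pold1 and Pole, did not pass the test, at 0.72 ± 0.40 and 0.93 ± 0.51. In both, LC replicate 1 lay within or above the IP + LC range, and without it they rose by 1.34 and 1.65 (edgeR adjusted p = 0.000347 and 0.00348). Pole2, a further subunit of epsilon, was not tested and had 0, 2 and 4 UMIs in LC tumors and 7, 18 and 6 UMIs in IP + LC tumors.

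Of the genes of the clamp and its loader, 3 of 6 rose (16.8% of all genes), with a median log2 fold change of 0.79. Without LC replicate 1 all 6 rose (28.3% of all genes), with a median of 1.25. Rfc1, the large subunit of the loader, had the smallest p-value and was the gene whose lowest LC tumor was LC replicate 1. It was at 39.6, 48.6 and 66.1 CPM in LC tumors and at 89.9, 92.8 and 85.0 CPM in IP + LC tumors, with no overlap (log2 fold change 0.77 ± 0.23, edgeR adjusted p = 0.0341). It lost its call without LC replicate 2 (edgeR adjusted p = 0.133) and without IP + LC replicate 1 or 2 (0.102 and 0.122). Rfc5, a small subunit, had the largest change, from 41.3, 14.1 and 5.93 CPM to 55.1, 52.0 and 48.7 CPM (log2 fold change 1.57 ± 0.48, edgeR adjusted p = 0.0409), and lost its call without LC replicate 2 or 3 (edgeR adjusted p = 0.177 and 0.104), without IP + LC replicate 1 or 2 (0.124 and 0.13) and with thinned counts (0.264). Rfc3 rose by 1.01 on the log2 scale, and Rfc2 and Rfc4 did not pass the test at 0.37 and 0.62.

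Pcna, the sliding clamp and the most abundant of the 51 genes in IP + LC tumors, had 236 CPM in LC replicate 1 and 94.0 and 76.3 CPM in LC replicates 2 and 3. The IP + LC tumors had 236, 243 and 218 CPM. The log2 fold change was 0.81 ± 0.38 with all tumors (edgeR adjusted p = 0.15) and 1.45 without LC replicate 1 (edgeR adjusted p = 3.41e-06). With all 6 tumors it also passed the limit with the replicate block (edgeR adjusted p = 0.0858), with no filter (0.0101), with at least 10 UMIs in every library (0.0936), with the length trend taken out (0.0401) and by limma voom (adjusted p = 0.0666). A pseudogene, Pcna-ps2, matches 51.4% of the Pcna transcript and had 10 to 11 UMIs in LC tumors and 20 to 43 UMIs in IP + LC tumors, so that reads could be shared between the 2 rows.

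Single-strand binding and Okazaki fragment genes had a median log2 fold change of 0.59, with 1 of 4 tested genes called, where 16.8% of all genes rose. Without LC replicate 1 the median was 1.14 and 3 of 4 were called, where 28.3% of all genes rose. The gene called with all tumors was Lig1, the ligase that seals Okazaki fragments, at 37.9, 15.7 and 13.6 CPM in LC tumors and 91.4, 76.5 and 82.1 CPM in IP + LC tumors. Its groups did not overlap, and its log2 fold change of 2.02 ± 0.34 had an edgeR adjusted p of 0.00384. The RPA trimer, which coats single-stranded DNA, behaved differently in LC replicate 1. Rpa1, Rpa2 and Rpa3 were at 103, 60.3 and 131 CPM there, against 46.6 to 54.8, 16.1 to 18.0 and 55.1 to 59.5 CPM in the other LC tumors. Their log2 fold changes with all tumors were 0.31, 0.87 and -0.30, none of which passed the test.

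Fen1, the flap nuclease that trims Okazaki fragments, had 0 UMIs in all 6 tumors, where a count of 0 allows up to 1.75 to 5.17 CPM, depending on the library. Fen1 lies at chr19:10199132-10204169 on the minus strand of GRCm38, and exons of Gm10143 and Tmem258 on the opposite strand cover 94.3% of its last 1000 bases. Gm10143 had 0 to 2 UMIs and Tmem258 had 94 to 135. The part of this overlap in the 0 was not tested.

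**Figure D3:**
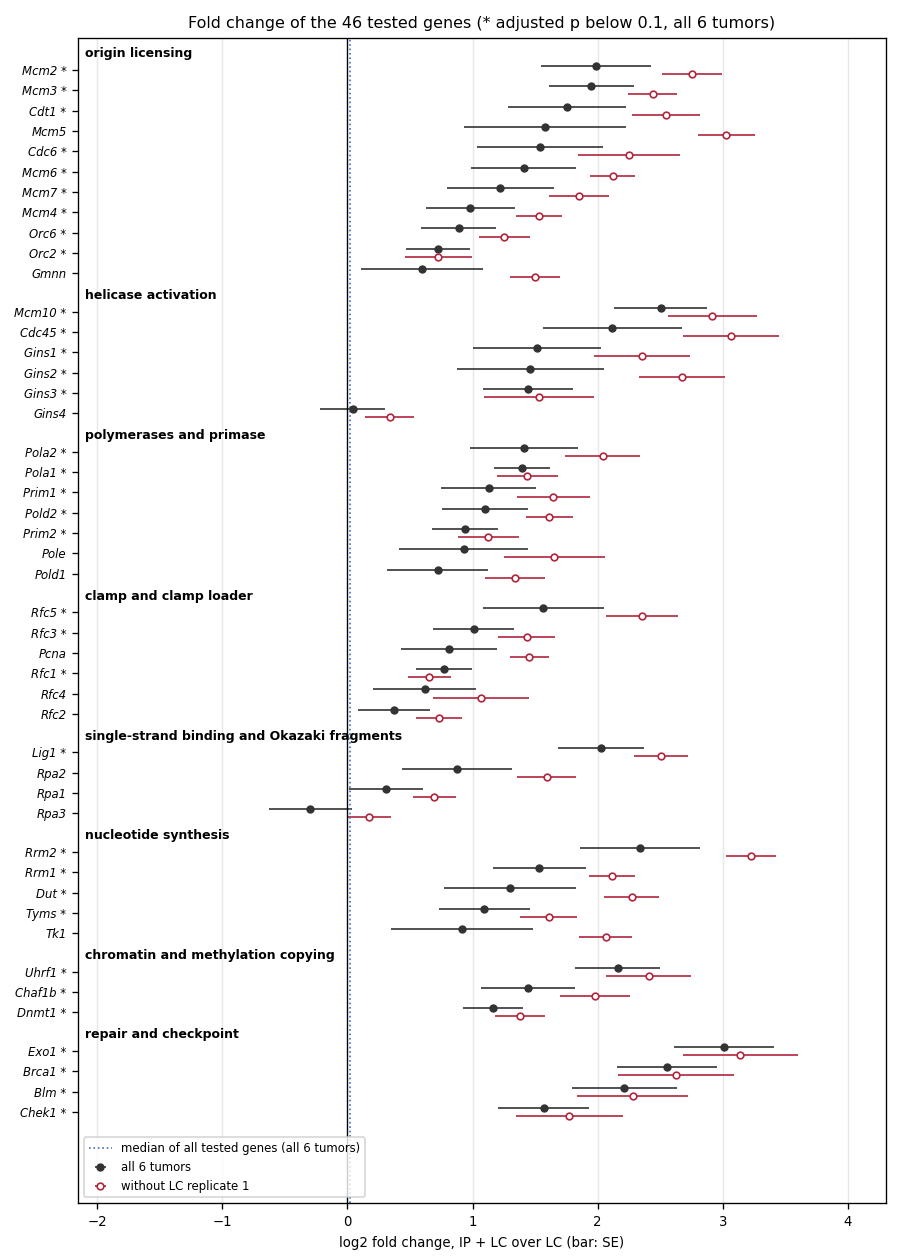
Log2 fold change of the 46 tested genes, IP + LC over LC (x axis; bars, SE), with all 6 tumors in black and without LC replicate 1 in red, grouped by role. An asterisk marks the 34 genes with an adjusted p below 0.1 with all tumors, and the dotted line at 0.02 is the median of all tested genes.

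Of the 5 nucleotide synthesis genes, 4 rose in IP + LC tumors (16.8% of all genes), with a median log2 fold change of 1.30. Rrm1 and Rrm2 were those called whichever tumor was left out. Rrm2 (ENSMUSG00000020649, at chr12:24708241-24714146 on the plus strand of GRCm38), the small subunit of ribonucleotide reductase that is made in S phase, had both the smallest p-value and the largest change. It was at 75.8, 20.4 and 17.0 CPM in LC tumors and at 174, 190 and 158 CPM in IP + LC tumors (log2 fold change 2.34 ± 0.48, edgeR adjusted p = 0.00854). LC replicate 1 lay between the groups and overlapped neither. Rrm1, the large subunit, rose by a smaller step, from 89.5, 34.5 and 31.4 CPM to 155, 145 and 126 CPM (log2 fold change 1.53 ± 0.37, edgeR adjusted p = 0.0164).

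Dut and Tyms, which keep uracil out of DNA and make thymidylate, rose by 1.30 and 1.09 on the log2 scale. Both calls were kept in 1 of the 6 fits that leave out a tumor, and for Dut the adjusted p by edgeR was 0.0994, close to the limit. Tk1, the S-phase thymidine kinase of salvage, did not pass the test. LC replicate 1, at 86.1 CPM, was above all IP + LC tumors (62.5 to 66.8 CPM), and LC replicates 2 and 3 were at 15.7 and 15.3 CPM. Its log2 fold change was 0.92 ± 0.56 (edgeR adjusted p = 0.26) and 2.06 without LC replicate 1 (edgeR adjusted p = 2.44e-06), and it also passed the limit with all tumors with no filter (edgeR adjusted p = 0.00521) and by limma voom (adjusted p = 0.0462).

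All 3 tested genes that copy chromatin or DNA methylation rose (16.8% of all genes). Uhrf1, which finds hemimethylated CpG sites behind the fork, had the smallest p-value and the largest change. Its level was 12.1, 5.48 and 7.63 CPM in LC tumors and 42.1, 27.4 and 35.6 CPM in IP + LC tumors (log2 fold change 2.16 ± 0.34, edgeR adjusted p = 0.00284), with no overlap. Uhrf1 passed the filter only through the IP + LC group, so that it had to be higher there to be tested. Chaf1b, a subunit of the chromatin assembly factor CAF-1, and Dnmt1, the methyltransferase that UHRF1 calls in, rose by 1.44 and 1.16 on the log2 scale, and Chaf1b kept its call in 5 of the 6 fits that leave out a tumor. Chaf1a, the large subunit of CAF-1, was not tested, with 0, 0 and 1 UMIs in LC tumors and 9, 9 and 8 in IP + LC tumors. The ratio of pooled UMIs per pooled library total was 20.1 with a 95% counting interval of 3.30 to 823, and 94.3% of its last 1000 bases overlap Ubxn6 on the opposite strand, which had 0 to 7 UMIs.

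Of the repair and checkpoint genes, 4 of 4 tested genes rose (16.8% of all genes) with no overlap between the groups (21.6% of all genes), and their median log2 fold change was 2.38. This was the largest median of the 8 roles with all tumors, but without LC replicate 1 it was 2.28, below the 2.52 of helicase activation. All 4 passed the filter through the IP + LC group alone. Exo1 (ENSMUSG00000039748, at chr1:175880581-175913489 on the plus strand of GRCm38) had both the smallest p-value and the largest change of the 46 tested genes. It was at 3.44, 3.13 and 1.70 CPM in LC tumors and at 22.5, 25.7 and 17.4 CPM in IP + LC tumors (log2 fold change 3.01 ± 0.40, edgeR adjusted p = 0.00151). Brca1, Blm and Chek1, which act in homologous recombination, in unwinding of recombination intermediates and in the replication checkpoint, rose by 2.55, 2.21 and 1.57 on the log2 scale. LC replicate 1 had 2 to 4 UMIs for each of these genes and lay well below the IP + LC tumors, unlike for Mcm5 or Pcna. Their longest transcripts have 3797 to 7796 bases, and those of Mcm5 and Pcna 3381 and 1518. Pole, at 7163 bases, was nonetheless higher in LC replicate 1 than in the other LC tumors, by 1.47 on the log2 scale. The part of length in these differences was not tested. Fancd2, which acts at crosslinked forks, was not tested and had 3 UMIs in each LC tumor and 13, 11 and 14 in IP + LC tumors (ratio of pooled UMIs per pooled library total 3.26, 95% counting interval 1.55 to 7.67).

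Ratios of counts between genes within a tumor do not depend on scaling, and 5 were compared on the log2 scale with 0.5 added to each count. In LC replicate 1 they also carry its trend with transcript length, so that each difference is given with and without that tumor. With 3 tumors against 3, the smallest two-sided p of the exact permutation test is 0.1, which all 5 reached (0.1 after adjustment over the 5), so that none can pass 0.05. The log2 ratio of Rrm2 to Rrm1 was -0.24, -0.75 and -0.87 in LC tumors and 0.17, 0.38 and 0.33 in IP + LC tumors, a difference of 0.91 that was 1.1 without LC replicate 1 and 0.41 with counts thinned to the smallest library. The ratio of Rrm2 to Rrm2b, the p53-driven small subunit that serves resting cells, differed by 2.82 (3.78 without LC replicate 1), and that of Tk1 to the mitochondrial kinase Tk2 by 1.92 (2.6 without it and 2.88 with thinned counts). The log2 ratio of Cdt1 to Gmnn was -1.11, -0.77 and -1.41 in LC tumors and 0.13, -0.01 and -0.23 in IP + LC tumors, a difference of 1.06 that was 1.05 without LC replicate 1 and 2.15 with thinned counts.

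The ratio of Pcna to Mki67, a proliferation marker of all cycling phases, was lower in IP + LC tumors, at 0.57, 1.06 and 1.03 on the log2 scale against 3.24, 2.36 and 1.89 in LC tumors. This was a difference of -1.61, or -1.24 without LC replicate 1. Mki67 itself was at 24.1, 18.0 and 20.3 CPM in LC tumors and 159, 116 and 107 CPM in IP + LC tumors. The exons of Mki67 cover 10061 bases and those of Pcna 2400. The ratio in LC replicate 1, and the difference of -1.61 that includes it, thus also carry that tumor's trend with transcript length.

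The level of these genes in LC replicate 1 went with transcript length, which was looked at after their values were seen. Across the 46 tested genes, the difference in log2(CPM + 4) between LC replicate 1 and the mean of LC replicates 2 and 3 had a Spearman's rho of -0.34 with the longest GENCODE transcript. Across all 11240 tested genes, which share the same libraries, rho was -0.38, so that the trend ran through all genes. The same measure for the mean of the IP + LC tumors had a rho of 0.06 across the 46 genes and -0.04 across all. The 23 genes with transcripts up to 3406 bases were higher in LC replicate 1 than in the other LC tumors by a median of 1.44 on the log2 scale and the 23 longer ones by 0.98. For the IP + LC tumors these medians were 1.47 and 1.61. With the length trend of each library taken out, 37 of the 46 genes rose by edgeR and the median log2 fold change was 1.35. The part of length in the level of single genes was not tested.

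**Figure D4:**
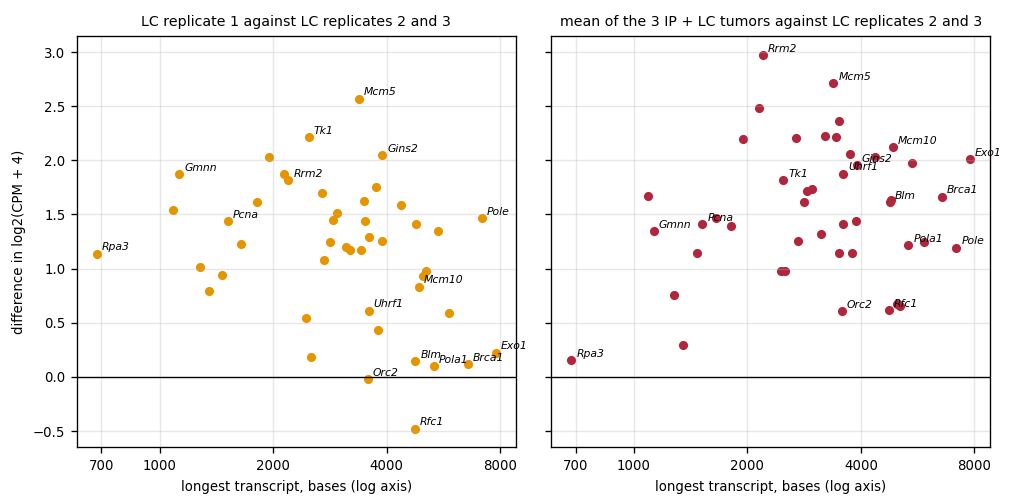
Difference in log2(CPM + 4) from the mean of LC replicates 2 and 3 (y axis) against the longest transcript in bases (x axis, log axis) for the 46 tested genes, for LC replicate 1 (left) and the mean of the 3 IP + LC tumors (right). At left the points fall loosely with length (rho = -0.34), with long transcripts both near 0, such as Exo1 (0.22), and well above it, such as Pole (1.47), and at right rho is 0.06.

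The other genes of the pathway rose in part. Of 43 tested replication and fork factors outside the 51, 22 rose (16.8% of all genes) and none fell (19.6% of all genes) by edgeR, with a median log2 fold change of 0.82, and none fell at an unadjusted p under 0.05, by DESeq2 or by voom. Leaving out IP + LC replicate 2 gave 10 and leaving out LC replicate 2 or IP + LC replicate 3 gave 14. In these 3 fits 897, 1016 and 1307 of all genes rose. Without LC replicate 1, 31 of 44 rose (28.3% of all genes) and 1 fell, Atr, the kinase of the replication checkpoint (log2 fold change -0.64, edgeR adjusted p = 0.0878). The largest increases were those of Rmi2, a partner of the BLM helicase, Bard1, the partner of BRCA1, and Clspn, the claspin that carries the checkpoint signal to CHK1. Bard1 was at 6.89, 6.27 and 10.2 CPM in LC tumors and 35.5, 47.3 and 52.3 CPM in IP + LC tumors (log2 fold change 2.50 ± 0.30, edgeR adjusted p = 0.0012). Rmi2 and Clspn rose by 2.76 and 2.40 on the log2 scale.

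Of 35 further genes of nucleotide synthesis and salvage, 15 rose, where 16.8% of all genes rose, and 4 fell, with a median log2 fold change of 0.59. The number that rose was 8 without LC replicate 2 and 23 without LC replicate 1, where 1016 and 3324 of all genes rose. Mthfd2, the mitochondrial folate enzyme that feeds purine synthesis with carbon units, rose from 48.2, 11.0 and 17.0 CPM in LC tumors to 117, 136 and 85.7 CPM in IP + LC tumors (log2 fold change 2.31 ± 0.45, edgeR adjusted p = 0.00703). Pfas, an enzyme of purine synthesis, and Dctd, which makes dUMP from dCMP, rose by 1.77 and 1.75 on the log2 scale. Dctd lost its call without LC replicate 2 or 3 (edgeR adjusted p = 0.19 and 0.151) and without IP + LC replicate 2 or 3 (0.102 and 0.156). The 4 that fell were Impdh1, Ctps2, Mthfd1 and Tk2, with log2 fold changes of -1.26, -0.77, -0.76 and -0.68. The 4 of 35 were a smaller share than the 19.6% of all genes that fell. With no filter on low counts only Impdh1 was still called lower, and it was the only 1 of the 4 called whichever tumor was left out. Ctps2, Mthfd1 and Tk2 kept their calls in 3, 2 and 1 of the 6 fits that leave out a tumor, at edgeR adjusted p of up to 0.144, 0.257 and 0.228. Mthfd1 also lost its call with library size scaling (edgeR adjusted p = 0.114) and with thinned counts (0.146), and Tk2 by DESeq2 (adjusted p = 0.202), with library size scaling (edgeR adjusted p = 0.186) and with the replicate block (0.166). Impdh1, an isoform of the entry enzyme of guanine nucleotide synthesis, was at 109, 94.8 and 97.5 CPM in LC tumors and at 43.5, 39.1 and 42.8 CPM in IP + LC tumors (edgeR adjusted p = 0.00239), with no overlap. Rrm2b was not called (log2 fold change -0.41 ± 0.30, edgeR adjusted p = 0.34) but was called lower without LC replicate 1 (edgeR adjusted p = 0.08).

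Of 25 mitosis genes, 24 were tested, 19 rose (16.8% of all genes) and none fell (19.6% of all genes), with a median log2 fold change of 1.91, and none fell at an unadjusted p under 0.05, by DESeq2 or by voom. Their summed level was 1438, 320 and 310 CPM in LC tumors and 2691, 2579 and 2339 CPM in IP + LC tumors. In LC replicate 1 the sum was thus also between the groups, and without that tumor 24 of 24 rose (28.3% of all genes) with a median of 2.87. Leaving out LC replicate 2 or either of IP + LC replicates 1 and 2 gave 12, where 1016, 1088 and 897 of all genes rose. The difference between the medians of the replication and the mitosis genes was not tested.

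Among 26 tested regulators of cell cycle entry, 11 rose and 3 fell, where 16.8% of all genes rose and 19.6% fell. The E2F genes E2f1, E2f3, E2f4 and E2f7 rose by 1.40, 1.91, 0.88 and 2.87 on the log2 scale, and their partner Tfdp1 by 1.39. The pocket protein gene Rbl1 rose by 1.23. Ccnd1, the cyclin of G1, rose by 2.84, Ccne1, the cyclin of S-phase entry, by 2.43, and the kinase genes Cdk2 and Cdk6 by 1.01 and 1.60. Foxm1, the driver of mitotic genes, rose by 2.15. The genes that fell were Cdkn1c (-2.29), Cdkn2b (-1.06) and Cdkn2c (-0.57), which encode CDK inhibitors, and their 3 of 26 were a smaller share than that of all genes. By DESeq2 10 rose and 2 fell, with no filter 2 fell (Cdkn1c and Cdkn2b), and without LC replicate 1 15 rose and 4 fell, Cdkn1b being added. E2f1, E2f4, Rbl1, Cdk2 and Cdkn2b kept their calls in 3 of the 6 fits that leave out a tumor, Cdkn2c and Foxm1 in 1, and the others in all 6. Ccnd1 was at 31.0, 49.4 and 38.1 CPM in LC tumors and 309, 302 and 253 CPM in IP + LC tumors (edgeR adjusted p = 0.000565). In LC replicate 1 Ccnd1 was the lowest of the LC tumors, while E2f1 (25.8 against 8.62 and 9.32 CPM) was the highest.

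**Figure D5:**
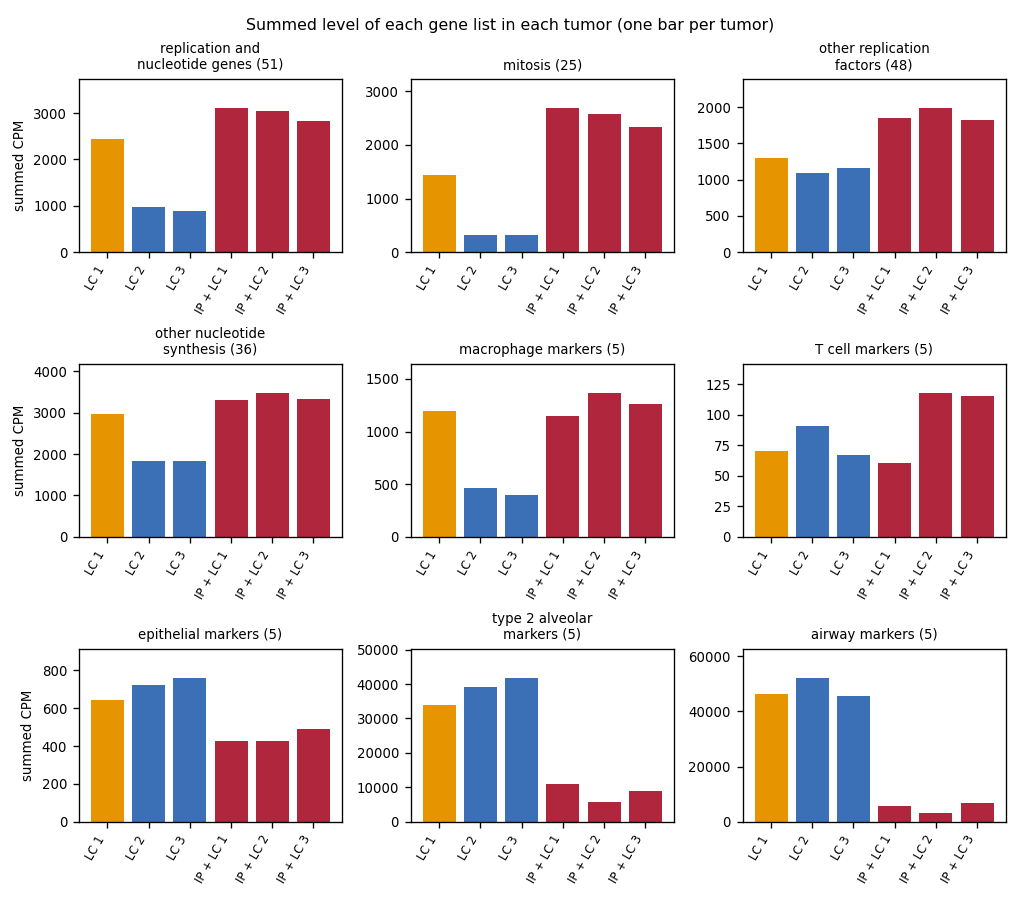
Summed CPM (y axis, from 0) of 4 gene lists and 5 marker lists in each tumor, with 1 bar per tumor (number of genes in brackets). LC replicate 1 is near the IP + LC tumors for the 51 genes (2450 CPM) and for macrophage markers (1192 CPM) and near the other LC tumors for type 2 alveolar and airway markers.

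Markers of other cell types moved with the groups. All 5 airway markers fell and their summed level was 45710 to 52280 CPM in LC tumors and 3116 to 6895 CPM in IP + LC tumors. For type 2 alveolar markers 4 of 5 fell, and the sums were 33790 to 41890 CPM and 5826 to 10820 CPM. For endothelium 5 of 5 fell (908 to 1494 and 300 to 374 CPM), and for epithelial markers 4 of 5 (644 to 763 and 428 to 492 CPM). Smooth muscle and cardiac muscle markers fell in 5 of 5 each, from 728 to 1147 CPM to 207 to 291 CPM and from 706 to 1623 CPM to 136 to 313 CPM. Type 1 alveolar markers fell in 4 of 5 (1882 to 3939 and 706 to 1032 CPM), B cell markers in 4 of 5 (200 to 291 and 37.7 to 148 CPM) and neutrophil markers in 3 of 5 (797 to 1923 and 145 to 318 CPM).

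Of the macrophage markers 2 of 5 rose, C1qa and Adgre1 (1 by DESeq2, 3 by voom, and 4 both with no filter and without LC replicate 1), and the sums were 1192, 466 and 397 CPM in LC tumors and 1144, 1369 and 1258 CPM in IP + LC tumors. LC replicate 1 was thus at the IP + LC level for macrophage markers and at the LC level for airway and type 2 alveolar markers. Among the 51 genes its place differed, at the IP + LC level for Mcm5 and Pcna, at the LC level for Pola1 and between the groups for Rrm2. Fibroblast markers were divided, with 2 higher and 2 lower, and sums of 1472 to 1907 and 1613 to 1726 CPM. Of the T cell markers tested, none passed by edgeR, at an unadjusted p under 0.05, by DESeq2 or by voom (sums of 67.0 to 90.9 and 60.2 to 118 CPM), and with no filter 1, Cd8a, was higher by edgeR. In none of these lists were all defining markers at 0, and Cd3e and Cd8a had 0 UMIs in LC replicate 1. The part of the mix of cells in the change of the 51 genes was not tested.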

How the data were processed

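Per the labels and the study's methods, the authors made 3′ bulk RNA barcoding libraries, extracted UMIs of 10 nucleotides with UMI-tools 1.1.1, and processed the reads with Trim Galore 0.6.7 for adaptors, HISAT2 2.2.1 for alignment (GRCm38) and featureCounts 2.0.1 for the genes. The deposited values are counts of different UMIs per gene, not normalized, in 1 table per tumor. The annotation release and strand setting were not given in the sources used here.

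The counts were tested in R 4.3.3 with edgeR 4.0.16 (filterByExpr with a minimum count of 10 and a minimum total of 15, TMM, quasi-likelihood test, IP + LC against LC, n = 3 each, Benjamini-Hochberg adjustment over all genes, limit 0.1, the study's limit for DEGs). The SE of a log2 fold change is its size divided by the square root of the F statistic. The p-values measure the spread between these 6 tumors, for which no batch is stated. Alternatives used DESeq2 1.42.0, limma 3.58.1, other scalings and filters, a replicate block, thinning to 592733 UMIs and each tumor left out. A length correction (lowess, span 0.3) was chosen after seeing the data. Intervals on ratios of low counts are exact and cover counting error only. Gene positions, overlaps and transcript lengths came from GENCODE mouse release M21, and promoters from RefSeq. Copies are matches of at least 95% identity.

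The 51 genes and all lists were chosen with earlier results of these data known. By a fixed rule, the text gives per-tumor values within each role for the gene with the smallest p-value, that with the largest change, any that fell and any not tested, and names in the other pathway lists up to 3 called genes in each direction, the genes of the ratios and every called regulator of cell cycle entry, some by fold change alone. Mcm6, the RPA genes and other genes with values outside this rule were chosen after their values were seen.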

Additional observations from a re-analysis of the deposited data

How the results depend on the processing

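The number of the 51 genes called higher was 34 with all tumors and 13 to 45 with each tumor left out in turn, and was most sensitive to LC replicate 2 (13 called without it), to IP + LC replicates 1 and 2 (17 each) and to LC replicate 3 (21). It was 22 of 30 tested with at least 10 UMIs in every library and 11 of 39 with counts thinned to the smallest library, which test fewer genes or fewer molecules. It was 32 to 40 with other scalings, DESeq2 and limma voom, and 25 at an adjusted p below 0.05. No gene of the 51 was called lower under any of these settings, and the median log2 fold change ran from 1.04 to 1.78. Over all genes, 707 of 8856 rose and 954 fell with thinned counts (897 to 3324 and 1368 to 3367 with each tumor left out). With at least 10 UMIs in every library 1470 of 7558 rose, and 1316 of 11240 at an adjusted p below 0.05. Of the other replication and fork factors, 8 of 20 tested rose with at least 10 UMIs in every library, 8 of 29 with thinned counts and 10 to 31 with each tumor left out. The other nucleotide genes gave 8 to 23 with each tumor left out. The mitosis genes gave 9 of 12 tested with at least 10 UMIs in every library, 8 of 22 with thinned counts and 12 to 24 with each tumor left out. With thinned counts the difference in the Rrm2 to Rrm1 ratio was 0.41, that in the Cdt1 to Gmnn ratio was 2.15, and the log2 fold change of Rrm2b, not called in either, turned from -0.41 to 0.26. Beyond these, the cause of a change was not tested. Over 28 named genes and all settings, 378 of 432 values kept their direction and side of the limit, 41 lost the call, 12 gained it and 1 turned.

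Samples that share a replicate number shared no more than the number. The correlations of their deviations from the group means over all genes were 0.03, -0.12 and 0.11, and not every tumor correlated best with its own number. With the replicate block, 35 of the 51 genes were called higher. The small size of LC replicate 1 limits what can be seen for genes under 5.17 CPM in it.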
